A study of Mus musculus with 3 samples.

Results

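The 10 genes described here bring iron into cells, store it, release it and send it out, and they were followed by RNA-seq in ILC2s, the group 2 innate lymphoid cells. They are Tfrc, Slc11a2, Steap3, Fth1, Ftl1, Ncoa4, Slc40a1, Hmox1, Aco1 and Ireb2, and they were found by symbol among the 27179 genes of the deposited count table. All 10 had a row. ILC2s are lymphocytes without antigen receptors of their own that make type 2 cytokines in tissues. The 3 libraries form 1 group, ILC2s of wild-type C57BL/6 mice without any labelled treatment, sorted as CD45+ CD90.2+ CD127+ KLRG1+ cells and negative for CD3, CD5, CD8, NK1.1, CD11b, CD11c and B220. They are named mouse 1, 2 and 3 after the numbers in their titles. The labels do not state the tissue, the age and sex of the animals, or whether a library pools animals. With 1 group, the design allows levels, comparisons of genes within a library and variation between mice, and no contrast of conditions.

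Iron circulates bound to transferrin, which cells take up through the transferrin receptor. In the endosome the metal is reduced and then carried into the cytosol by a divalent metal transporter. Iron that is not used at once is held in the hollow shell of ferritin, which is built from heavy and light subunits, and the only known exporter of vertebrate cells is ferroportin. The iron regulatory proteins bind a hairpin of messenger RNA, the iron-responsive element, when iron is scarce. At the 5′ end of a transcript this binding blocks translation, and at the 3′ end it protects the transcript from decay.

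These hairpins are shown first because they tie the members to each other. The letters searched were CNNNNNCAGTGN on the strand of the transcript, with N for any base: an unpaired C, one side of a short stem, and the loop. The principal transcript of each member was read from GENCODE M21 (GRCm38). All 10 members held the letters, as did 63.8% of the 22527 principal coding transcripts, so the letters alone are common. With the further demand that all 5 bases before the loop pair with those after it, counting G with T as a pair, 4 of the 10 members and 1.18% of all transcripts remained. Fth1, Ftl1 and Slc40a1 each had 1 such site in the 5′ UTR, and Tfrc had 4 in the 3′ UTR. The sites of the 3 members among these with at least 1 CPM follow 5′ to 3′, with the unpaired C and the CAGTG of the loop in capitals.
Fth1: ttcctgCttcaaCAGTGcttgaacg
Ftl1: gtcttgCttcaaCAGTGtttgaacg
Tfrc site 1: aattatCggaagCAGTGccttccat
Tfrc site 2: cattatCgggagCAGTGtcttccat
Tfrc site 3: ctatatCggagaCAGTGatctccat
Tfrc site 4: aattatCgggaaCAGTGtttcccat
The Fth1 site lies at chr19:9982732-9982756 on the plus strand and the Ftl1 site at chr7:45459783-45459807 on the minus strand. The Tfrc sites lie on the plus strand at chr16:32631219-32631243, chr16:32631598-32631622, chr16:32631663-32631687 and chr16:32631710-32631734. The windows around gene starts, from 250 bases before to 50 after, were also searched in RefSeq sequence of GRCm38.p6 for the 7 members with an entry. None of their 14 windows held the letters on the strand of the gene and 1 did on the other strand, against 10.4% of all 32851 windows on either strand. The complete sites began at base 84 or later of the principal transcripts, so windows that end 50 bases after a start say little about them. A match is a description of letters, and the libraries hold no measure of binding or of translation. Only 1 transcript per member was read and all 5 pairs were demanded. Elements in other transcripts or with an imperfect stem would be missed, so members without a match are not shown to lack one.

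The libraries held 17819551 to 26374248 counts. A floor of 3 counts, used as the most that a count of 0 allows by counting error alone, corresponds to 0.115 to 0.171 CPM. It does not include the spread between libraries. CPM are counts per 1000000 after scaling of the library sizes, and a gene was called detected at 1 CPM in each of the 3 libraries. All 17 ILC2 marker genes were detected, led per length by Calca and Id2. Erythroid genes, which would bring haem and iron genes of their own, had 0 of 8 detected, a summed level of 0.0441, 11.9 and 0.652 CPM in mice 1, 2 and 3, and no count for Slc4a1, Alas2, Epb42, Klf1 and Hba-a1. The highest were Hbb-bs (2.28 ± 3.55 CPM) and Hba-a2 (1.92 ± 3.12). Macrophage genes had 4 of 14 detected and a sum of 32.7 to 50.9 CPM, led by Lyz2 (26.2 ± 9.14) and C1qb (5.23 ± 1.40). Adgre1, Spic, Marco and Cd5l had no count. Gut epithelial genes had 1 of 11 detected, Epcam, followed by Krt18 (1.40 ± 2.43 CPM), with no count for Fabp1, Fabp2, Krt20, Lgr5, Muc2 and Alpi. B and plasma cell genes had 10 of 14 detected and summed to 12824, 34737 and 63364 CPM in mice 1, 2 and 3, led per length by Igkc and Jchain, while Ms4a1 and Pax5 had no count. In bulk libraries, fewer cells of a type and less RNA per cell cannot be told apart.

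Of the 10 members 7 were detected, against 31.1% of all genes in the table. The 2 ferritin subunits stood far above the rest, uptake and the regulatory protein Ireb2 followed, and the exporter Slc40a1 and the reductase Steap3 were at or next to 0. The third member that was not detected, Hmox1, had counts in 2 of 3 mice. Levels are given as CPM for each mouse, and genes are compared with each other only as CPM per kb of the principal transcript.

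**Figure D1:**
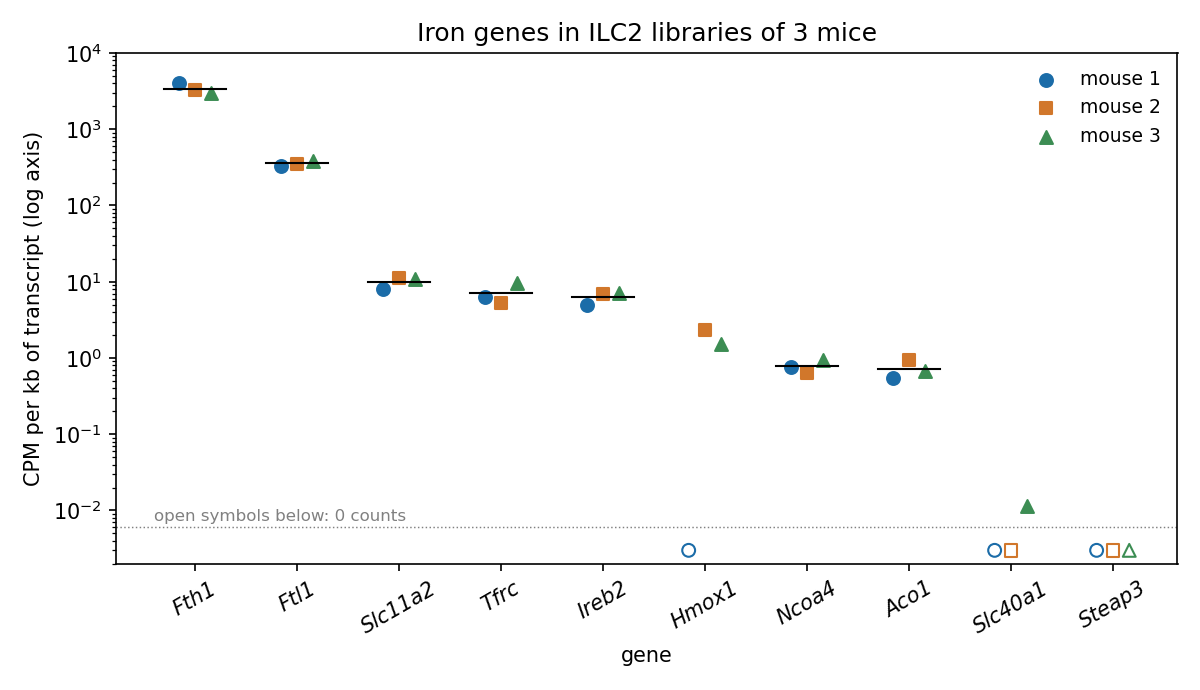
Level of each of the 10 iron genes in CPM per kb of transcript (log axis), with 1 symbol per mouse, a bar at the mean where all 3 mice had counts, and open symbols under the dotted line for 0 counts. Fth1 (mean 3396) and Ftl1 (357) sit above all others, and Slc40a1 and Steap3 at the bottom.

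Storage was the most abundant function. Fth1 (Entrez 14319, chromosome 19, 9980600 to 9985111, mm10) encodes the ferritin heavy chain, whose ferroxidase centre oxidises iron on entry. It had 5957, 4848 and 4415 CPM in mice 1, 2 and 3, a mean of 5073 ± 796 (SD, n = 3, as for each ± value here). Mouse 1 was the highest and mouse 3 the lowest, 1.35 times apart. Fth1 ranked 18th by mean CPM among 15092 genes with a count, and 26th per kb among the 14384 with a count and a length. Of all counts, 0.611% were Fth1 in mouse 1 (Wilson 95% bounds 0.607% and 0.614%, counting error only), 0.478% in mouse 2 and 0.436% in mouse 3.

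Ftl1 (Entrez 14325, chromosome 7, 45457944 to 45459886) encodes the light chain, which lacks the ferroxidase centre and favours the growth of the mineral core. It had 321, 342 and 375 CPM, a mean of 346 ± 27.4, and was the most even of the detected members with a coefficient of variation of 7.93%. Its order over the mice was the opposite of that of Fth1. Per kb, Fth1 (3396 ± 533) exceeded Ftl1 (357 ± 28.3) in all 3 mice, with a log2 difference of 3.24 ± 0.33. The ratio of Fth1 to Ftl1 per kb was 12.0, 9.19 and 7.62 in mice 1, 2 and 3, so the direction was shared and the size was not. The B and plasma cell sum given above had the reverse order over the mice, and its part in this ratio was not tested. The exact two-sided sign-flip permutation p was 0.25, the smallest that 3 libraries allow, as for each of the 8 gene pairs compared (0.25 after Benjamini-Hochberg adjustment). The log2 difference was 2.49 when lengths were summed over all exons, which for Fth1 include retained introns. In the principal transcripts the 5′ UTR site began at base 664 of 1494 for Fth1 and at base 84 of 968 for Ftl1. A shorter Fth1 transcript was not tried and would raise its level per kb, so the size of this difference rests on the transcript chosen. The coding sequences of both chains were 67.6% identical over 516 aligned bases. Ferritin genes also have processed copies elsewhere in the genome. The copy with a row and counts, Ftl1-ps2, had 0.662, 1.19 and 0.882 CPM, and the labels do not say how reads that fit several places were counted. The part of such reads in the levels of Fth1 and Ftl1, and in their ratio, was not tested.

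Ncoa4 encodes the cargo receptor that delivers ferritin to lysosomes, where its iron is freed. It had 3.09, 2.62 and 3.80 CPM in mice 1, 2 and 3, a mean of 3.17 ± 0.594. All 3 mice were low and close together. Per kb, Fth1 exceeded Ncoa4 by 11.88 ± 0.38 on the log2 scale in 3 of 3 mice.

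On the uptake side, Tfrc (Entrez 22042, chromosome 16, 32608896 to 32632794) encodes transferrin receptor 1, which takes up iron-loaded transferrin by endocytosis. It had 31.2, 26.0 and 46.7 CPM, a mean of 34.6 ± 10.8. Mouse 3 stood above the other 2, and the coefficient of variation, 31.1%, was the highest among the 7 detected members. Heat shock and immediate early genes, 13 of 14 of them detected and none at 0, had a sum in the same order, at 2929, 1847 and 4121 CPM. Junb (960 ± 552) and Dusp1 (552 ± 391) led that sum, and the other genes summed to 1526, 1219 and 1618 CPM. Only 4 of the 14 genes had the order of Tfrc themselves, while Fos, for one, was highest in mouse 1, at 448, 215 and 322 CPM. That order was also held by 6 of 17 ILC2 markers, 2 of 14 macrophage genes and 1 of 14 B and plasma cell genes. The erythroid, gut epithelial and proliferation lists had 0 genes in it. The share of all genes with that order was not computed, so these counts single out no list. B and plasma cell genes without Igkc and Jchain were highest in mouse 3 as well, with sums of 2475, 2937 and 10733 CPM. The part of these lists in the Tfrc values was not tested. Genes of proliferation, 8 of 12 detected and none at 0 in all libraries, summed to 288, 395 and 278 CPM. Pcna (194 ± 23.5) and Tyms (59.2 ± 28.3) led them, and the other genes of that list summed to 49.8, 99.2 and 51.2 CPM. Both sums were highest in mouse 2, and the part of proliferation in the Tfrc values was not tested either.

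Slc11a2 (Entrez 18174, chromosome 15, 100387898 to 100424209) encodes DMT1, which carries ferrous iron out of the endosome. It had 24.5, 34.2 and 32.6 CPM, a mean of 30.4 ± 5.19, with mouse 1 the lowest. Per kb of the principal transcript, Tfrc was below Slc11a2 in 3 of 3 mice, with a log2 difference of -0.54 ± 0.48. That order was not stable: with summed exon lengths the difference was 0.20, with Tfrc higher in 2 of 3 mice. Steap3, the endosomal ferrireductase known from red cell precursors, had 0 counts in each library. Slc11a2 was 315, 342 and 483 times higher per kb in mice 1, 2 and 3 when set against 3 counts of Steap3 in each library, a floor for counting error only. The other genes of this family were also low, since Steap1 had 0.920 and Steap2 0.384 CPM in mouse 3 and no count elsewhere, and Steap4 had none.

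Fth1 exceeded Tfrc per kb in all 3 mice, with a log2 difference of 8.92 ± 0.57. The difference was 9.26 and 9.23 in mice 1 and 2 and 8.26 in mouse 3, which had the least Fth1 and the most Tfrc. Transcript levels of ferritin do not give its protein, whose synthesis the iron-responsive element controls.

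**Figure D2:**
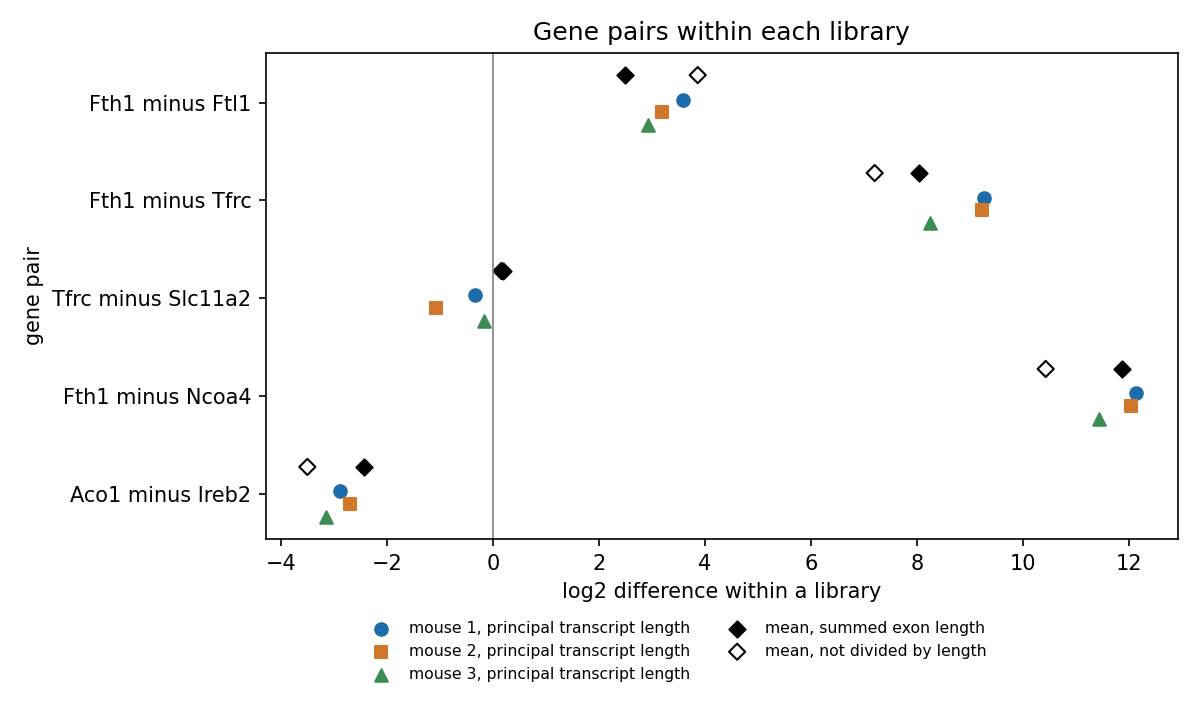
Difference between the genes of a pair within each library on the log2 scale (horizontal), for 5 pairs of members with counts in all libraries (vertical), with coloured symbols for the 3 mice per kb of principal transcript and diamonds for the mean with summed exon lengths (filled) or without division by length (open). The pair of Tfrc and Slc11a2 lies next to 0 and changes side with the length used, while the other 4 keep their side.

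Export was barely seen. Slc40a1 (Entrez 53945, chromosome 1, 45908070 to 45926532) encodes ferroportin. It had 0, 0 and 1 counts in mice 1, 2 and 3, so it was not distinguishable from 0 at this depth. Tfrc had 2383 counts over the 3 libraries, and the pooled ratio of Tfrc to Slc40a1 per kb was 1642, with an exact 95% counting interval of 294 to 64893. The multicopper oxidases that work beside ferroportin were likewise next to 0. Heph had no count and Cp had 0.0441, 0.0569 and 0 CPM.

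Hmox1 (Entrez 15368, chromosome 8, 75093618 to 75100593) encodes the inducible haem oxygenase, which frees iron from haem. It had 0 counts in mouse 1, 64 in mouse 2 and 62 in mouse 3, or 0, 3.64 and 2.38 CPM. Mice 2 and 3 were 27.5 and 18.0 times above the floor of 3 counts in mouse 1, which covers counting error only and is no bound on the level in that mouse. Hmox1 missed the filter of the variability test because of mouse 1. Without a filter it was tested and not called, with an adjusted p of 0.731 (edgeR quasi-dispersion F test). The erythroid sum of 0.0441, 11.9 and 0.652 CPM had the same order over the mice, with 0 of its 8 genes detected. So did the macrophage sum of 32.7, 50.9 and 41.5 CPM, but without Lyz2 and C1qb that sum was 8.03, 8.02 and 14.8 CPM. The B and plasma cell sum was lowest in mouse 1 as well. Their part in the Hmox1 values was not tested. The constitutive enzyme Hmox2 had 82.1, 60.2 and 75.3 CPM. Per kb, Hmox1 was 0.0667 and 0.0348 times Hmox2 in mice 2 and 3, and Hmox2 was the higher of the 2 in 3 of 3 mice.

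The iron regulatory proteins were unequal. Ireb2 (Entrez 64602, chromosome 9, 54862658 to 54912534) encodes IRP2, which is controlled by its degradation when iron is plentiful. It had 28.3, 39.4 and 41.3 CPM in mice 1, 2 and 3, a mean of 36.3 ± 7.05, with mouse 1 the lowest. Aco1 (Entrez 11428, chromosome 4, 40143265 to 40199009) encodes IRP1, which is an aconitase when it carries an iron-sulfur cluster and binds RNA when it does not. It had 2.07, 3.58 and 2.61 CPM, a mean of 2.75 ± 0.765, again lowest in mouse 1. Per kb, Aco1 was below Ireb2 in 3 of 3 mice, with a log2 difference of -2.92 ± 0.23, or 0.132 times the level of Ireb2. With summed exon lengths it was -2.43, still with Ireb2 higher in 3 of 3. Their coding sequences were 67.1% identical over 2626 aligned bases.

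The order of the mean levels per kb was Fth1, Ftl1, Slc11a2 (10.1 ± 1.72), Tfrc (7.09 ± 2.20), Ireb2 (6.30 ± 1.22), Hmox1, Ncoa4 (0.779 ± 0.146), Aco1 (0.719 ± 0.200), Slc40a1 and Steap3. The ferritin chains were followed at a distance by Slc11a2, Tfrc and Ireb2, and these by the low members. Tfrc and Ireb2 did not differ beyond their spread (log2 difference 0.15 ± 0.43, higher in 2 of 3 mice), nor did Ncoa4 and Aco1 (0.10 ± 0.50, higher in 2 of 3) or Hmox1 and Ncoa4 (0.37 ± 1.67). With summed exon lengths Tfrc was above Ireb2 in 3 of 3 mice and Ncoa4 above Aco1 in 0 of 3, so neighbours in this order depend on the length used. No order is given for Slc40a1 and Steap3, which were both under 3 counts per library.

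Genes whose levels per kb came closest to those of 3 members were looked up over the 3 libraries, as a description only. For Fth1 they were Sh3bgrl3, Cnbp and Il2rg, with a root mean square log2 difference of 0.09, 0.17 and 0.19. For Tfrc they were E2f5 (0.03), Agpat3 (0.07) and Actg1 (0.09), and all 3 had their lowest value in mouse 2 and their highest in mouse 3, which the measure favours. For Slc40a1 they were Vwc2, Rhou and Bean1, each with a single count in mouse 3.

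No member was called more variable between mice than other genes of its abundance. Of the 7 members that passed the filter on low counts, edgeR's quasi-dispersion F test called 0 at an adjusted p of 0.05 (Benjamini-Hochberg over 9175 genes), against 0.185% of all genes tested, which is 17 genes. That count over all genes was 1 of 9131 without immunoglobulin genes, 0 of 9175 with a robust prior, 30 of 7648 with a mean of at least 5 CPM and 31 of 9841 without mouse 1, with 0 members called in each. At an unadjusted p below 0.05 the edgeR test gave 0 of the 7 members, against 416 of the 9175 genes tested. For the members, limma and DESeq2's dispersion outliers also gave 0. The log2 ratio of a gene's quasi-dispersion to the trend ran from -3.28 for Ncoa4 to -0.18 for Tfrc. Its median was -1.76 over these 7 members and -0.43 over all genes tested, and 59.7% of all tested genes lay below the trend, as the 7 members did. Hmox1, Slc40a1 and Steap3 are not part of these figures.

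**Figure D3:**
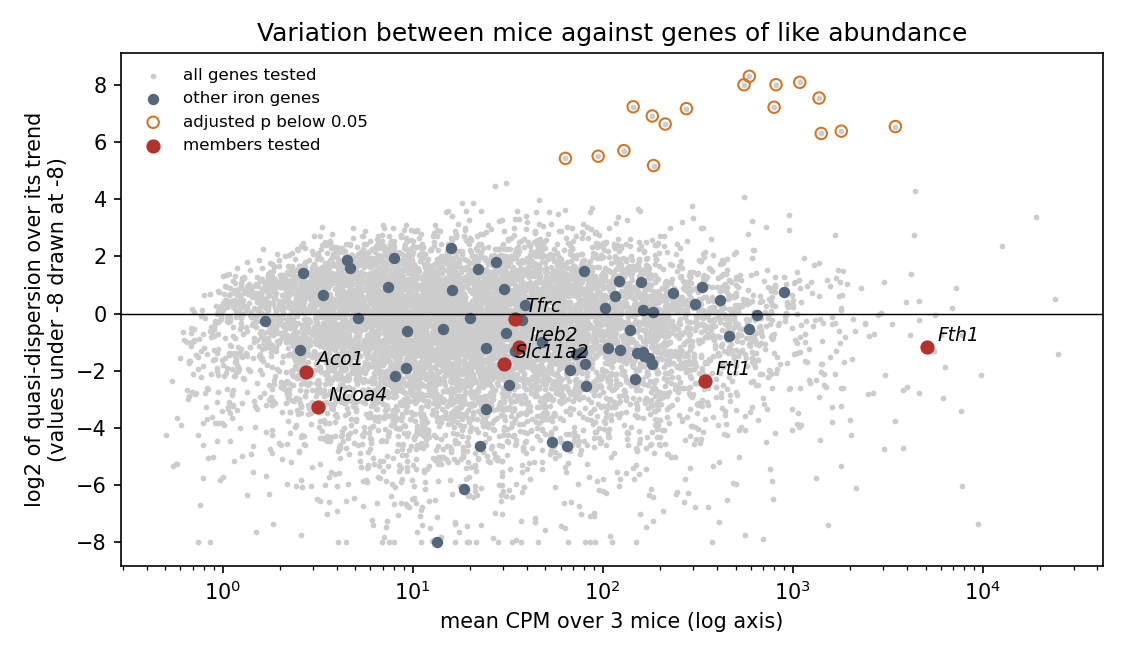
Log2 ratio of each gene's quasi-dispersion between mice to the trend (vertical) against its mean CPM over 3 mice (horizontal, log axis), for 9175 tested genes (light), other iron genes (dark), the 7 tested members (red, named) and genes with an adjusted p below 0.05 (open rings). The 7 members lie between -3.28 and -0.18, under the line at 0, and none is ringed.

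The wider iron lists held 93 genes with a row, and 57 were detected at 1 CPM in each library, against 31.1% of all genes in the table. Their summed level was 7025, 7504 and 7112 CPM in mice 1, 2 and 3. Of the 61 that could be tested, 0 were called more variable between mice by edgeR, limma or DESeq2, against 0.185% of all genes tested by edgeR. At an unadjusted p below 0.05 the edgeR test gave 1 of the 61, Mcoln1, the lysosomal channel, against 416 of all 9175 genes tested.

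The counts of detected genes in each list stand against the same 31.1% of all genes, and differences between lists were not tested. Genes that sense iron or turn over its regulators were detected in 8 of 8 cases, led per kb by Ndfip1 (498 ± 117), an adaptor for ubiquitin ligases that act on DMT1, and Skp1 (369 ± 65.7), a subunit of the ligase that degrades IRP2. The iron-sensing subunit of that ligase, Fbxl5, had 164, 136 and 115 CPM. It is named for its role, after its values were seen. Mitochondrial iron and iron-sulfur genes were detected in 15 of 19 cases, led per kb by the scaffold and assembly genes Isca2 (345 ± 72.8) and Iscu (189 ± 19.0). Their cytosolic counterparts were detected in 9 of 11, led by Ciao2a (336 ± 72.0) and Ciao2b (177 ± 21.5).

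Haem synthesis had 10 of 12 genes detected, led per kb by Tmem14c (192 ± 23.4), a porphyrin transporter, and Alad (64.2 ± 23.5), the enzyme of the pathway's second step. Of the first enzyme's 2 genes, the general Alas1 had 8.29, 2.27 and 11.6 CPM and the erythroid Alas2 had no count. Haem transport and breakdown had 8 of 16 detected, led per kb by Blvra (106 ± 13.7), which reduces the biliverdin that haem oxygenases make, and Nfe2l2 (64.2 ± 20.3), the regulator known for inducing Hmox1. Iron chaperones and other storage genes had 4 of 7, led per kb by Pcbp2 (98.9 ± 9.03), which hands iron to ferritin, and Bola2 (84.6 ± 12.0), and mitochondrial ferritin, Ftmt, had no count.

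Other uptake and reduction genes had 3 of 12 detected, near the share of all genes, led per kb by Snx3 (420 ± 61.6), a sorting factor that recycles the transferrin receptor, and Trf (47.2 ± 14.5), which encodes transferrin itself. Trf had 129, 81.0 and 154 CPM in mice 1, 2 and 3. The second receptor, Tfr2, had 0, 0 and 2.15 CPM, and the surface reductase Cybrd1 had no count. The hepcidin axis and other export genes had 0 of 8 detected, with Hfe (0.271 ± 0.298 CPM per kb) and Tmprss6 (0.0360 ± 0.0624) the highest, and Heph, Hamp, Hamp2, Hjv and Bmp6 had no count.

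**Figure D4:**
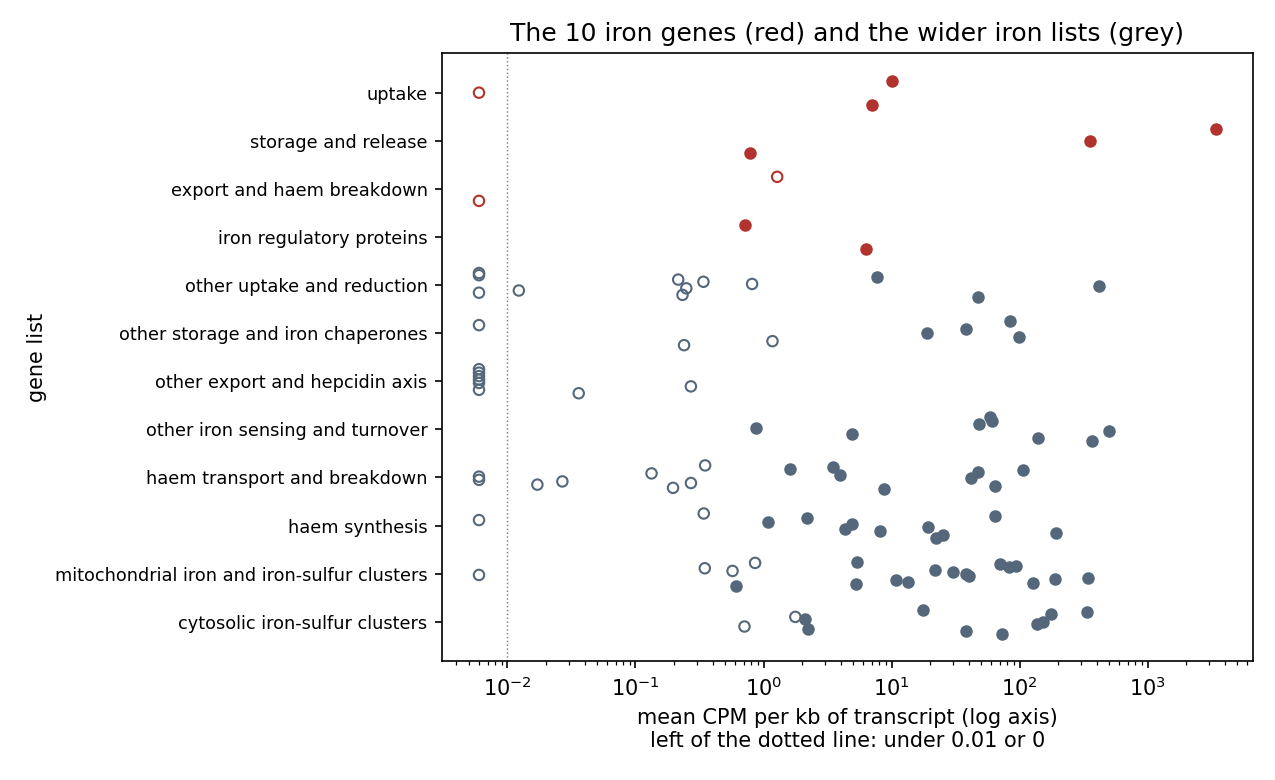
Mean CPM per kb of transcript over 3 mice (horizontal, log axis) for each gene of the 4 groups of members (red) and the 8 wider iron lists (grey), filled where the gene was detected at 1 CPM in each library and open where it was not. The 8 genes of iron sensing and turnover, which include parts of ubiquitin ligases, are all filled, and the 8 genes of the hepcidin axis and other export are all open.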

How the data were processed

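Per the labels' protocols, RNA-seq libraries of the sorted ILC2s came from a SMARTer low-input kit, which does not mark strand. The deposited table holds raw read counts per Entrez gene ID for 3 libraries. CASAVA 1.8.2, STAR 2.3.0 and the mm10 build are named in the submitters' processing notes, and the counting program is not given in the sources used here. Symbols came from RefSeq GRCm38.p6 for 25275 of 27179 IDs, and GENCODE M21 lengths were found for 24900. IDs without a symbol stayed in the library sizes.

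Each pair of libraries differed by more than sampling noise (chi-square of 133 to 226 per degree of freedom). Nothing beyond the design text says they are separate animals, so p-values refer to these libraries. The sign-flip p is at its smallest whenever all 3 differences share a sign, whatever their spread. The edgeR p compares a gene's variation between libraries with that of genes of like abundance. CPM used TMM factors (edgeR 4.0.16, R 4.3.3). Pairs used log2(CPM + 0.5) per kb of the principal APPRIS transcript. Variation between mice was tested with an intercept-only quasi-likelihood fit on genes passing filterByExpr (minimum count 10). Its run on simulated data is not reported here, so how often it would miss a true difference is not given. Named genes were the members, the 2 highest of each list per length, any called gene of the iron lists (there was none), the markers at 0 and the nearest genes of 3 members. Other genes were named for their role after their values were seen. Alternatives used limma 3.58.1 and DESeq2 1.42.0, other scalings, filters, pseudocounts and lengths, and each library left out. No protein sequences were used. The members and lists were chosen with earlier results of these data known. The values of some single marker genes are not reported here.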

Additional observations from a re-analysis of the deposited data

How the results depend on the processing

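No paired analysis was possible because there is only 1 group of samples. Of the comparisons with an alternative for the main results 85 held, 13 moved by more than 1 SD and 2 reversed, and 50 of 50 for the levels of single members stayed within 1 SD. Pair differences were judged by their SD, but counts of genes were said to hold within 1.5 times. The 85 thus include 5 against 7 members detected and each count of 0 genes called against 0. Leaving out a mouse cannot shift a mean of 3 values by more than their SD, so those checks of pairs and levels could not show a move. Other scalings act alike on both genes of a pair, apart from the added 0.5 CPM, so they could hardly move a pair. Steap3 was 0 at each setting. The numbers that held are therefore no measure of stability. Levels of single members were judged by their SD as well. For Hmox1 and Slc40a1 that SD is about as large as the mean or larger: leaving out a mouse gave Hmox1 1.19 to 3.01 CPM against 2.01, and Slc40a1 0 to 0.0192 CPM against 0.0128. The summed exon length was added after the data were seen. All moves came from length or, for genes at or next to 0 counts, from the pseudocount. On the log2 scale Tfrc minus Slc11a2 turned to 0.16 without division by length and to 0.20 with summed exon length. Without division by length Fth1 minus Ftl1 was 3.86, Fth1 minus Tfrc 7.21, Tfrc minus Slc40a1 6.06, Slc11a2 minus Steap3 5.94, Fth1 minus Ncoa4 10.44 and Aco1 minus Ireb2 -3.51. With summed exon length these were 2.49, 8.04, 6.60 and 5.78 for the first 4, and -2.43 for Aco1 minus Ireb2. With 0.1 CPM added, Tfrc minus Slc40a1 was 7.70 and Slc11a2 minus Steap3 9.01, against 5.52 and 6.71 with 0.5 CPM, and these 2 values are no bounds. At 5 CPM in each library 5 members were detected, without Ncoa4 and Aco1. Without each mouse in turn 7 to 8 members were detected, with 8 without mouse 1, where Hmox1 is added, and 0 were called more variable. Depth limits Slc40a1 and Steap3 to statements about the level that a count of 0 allows by counting error.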

Other observations

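Some iron genes outside the 10 members were uneven between mice. Slc39a8, Slc39a14 and Cd163 missed the filter of the variability test, while Mcoln1 and Ppox were tested and not called. Without a filter 81 genes of the wider iron lists were tested and 0 were called. Slc39a8, a zinc and iron importer, had 0.309, 0 and 8.32 CPM in mice 1, 2 and 3, and its relative Slc39a14 had 0.0441, 4.44 and 0.537. Mcoln1, the lysosomal channel, had 4.41, 10.2 and 32.9 CPM (adjusted p = 0.975, edgeR quasi-dispersion F test). Ppox, a haem synthesis enzyme of the mitochondrion, had 2.82, 3.13 and 17.9 CPM (adjusted p = 0.975, same edgeR test). Cd163, the macrophage receptor for haemoglobin bound to haptoglobin, was seen in mouse 3 alone, at 1.76 CPM. These genes were chosen after their values were seen.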
